A study of Mus musculus with 16 samples.

Results

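Klf9, Klf10, Klf11 and Klf15 are 4 genes of the Krüppel-like factor family, and the occupancy of their loci by BMAL1 was read from chromatin immunoprecipitation and sequencing of mouse liver. Every interval of the authors' merged and annotated peak table that names one of these genes was taken, at any distance from the gene, together with the peaks overlapping it in the list of each library. This gave 13 of 7043 intervals and 33 of 9986 peaks, with 2 intervals at Klf9, 4 at Klf10, 2 at Klf11 and 5 at Klf15. The genes were chosen by the authors' peak calls in these same libraries, so calls and peak heights at them are given as a description and were not tested.

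The study had 8 BMAL1 libraries and 8 IgG libraries, 1 of each for every combination of treatment, sex and time of day. The IgG libraries were not used here. Mice labelled misaligned went through a paradigm whose schedule the labels do not describe, and the others were labelled control. All were C57bl6 mice of 8 to 16 weeks under 12 h of light and 12 h of dark, moved from chow to a high-fat diet with 42% of calories from fat when the paradigm began. The groups were misaligned females, control females, misaligned males and control males, each sampled at ZT12 and at ZT0, where ZT is zeitgeber time (by convention hours after lights on). Each library came from liver pooled from 3 to 4 mice, so the spread between animals is not visible, and with 1 library per group no difference can be set against replicate error.

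BMAL1 is the transcription factor that pairs with CLOCK and binds E-boxes, DNA elements with the core CACGTG, to drive rhythmic genes. Krüppel-like factors are zinc finger proteins that bind GC-rich and CACCC elements, which they share with the SP factors. Klf9 is induced by glucocorticoids and thyroid hormone, Klf10 and Klf11 were first described as genes induced early by TGF-beta, and Klf15 is a glucocorticoid-induced regulator of amino acid breakdown and glucose production in liver.

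Klf11 and Klf15 are shown first by the sequence just before their starts, because peaks of several libraries had their summits there. The sequences run from 250 bases before the start of transcription in the RefSeq promoter table through the first 3 transcribed bases. They are on the plus strand of GRCm38.p6 and are credited to RefSeq. Capitals mark the E-box CACGTG. The sequences lie at chr12:24651121-24651373 for Klf11 and at chr6:90462326-90462578 for Klf15.
Klf11: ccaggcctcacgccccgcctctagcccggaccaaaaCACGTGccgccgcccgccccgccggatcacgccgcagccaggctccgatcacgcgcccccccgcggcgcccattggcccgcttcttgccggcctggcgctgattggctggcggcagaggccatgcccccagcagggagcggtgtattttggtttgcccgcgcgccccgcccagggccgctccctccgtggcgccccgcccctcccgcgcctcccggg
Klf15: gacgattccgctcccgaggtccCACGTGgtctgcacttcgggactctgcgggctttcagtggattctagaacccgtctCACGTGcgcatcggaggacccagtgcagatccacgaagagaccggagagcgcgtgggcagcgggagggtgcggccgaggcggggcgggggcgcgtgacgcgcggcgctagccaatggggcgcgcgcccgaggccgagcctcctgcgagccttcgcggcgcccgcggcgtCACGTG

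In the window from 250 bases before to 50 bases after the start, Klf11 held 1 E-box, Klf15 held 3 and Klf9 held none. The Klf11 E-box began 214 bp before the start, at chr12:24651157-24651162. Those of Klf15 began 228, 172 and 3 bp before the start, at chr6:90462348-90462353, chr6:90462404-90462409 and chr6:90462573-90462578. To let the surroundings of the 4 E-boxes be compared, each is printed with 10 bases on either side, the E-box again in capitals.
Klf11 at 214 bp before the start: cggaccaaaaCACGTGccgccgcccg
Klf15 at 228 bp before the start: cccgaggtccCACGTGgtctgcactt
Klf15 at 172 bp before the start: gaacccgtctCACGTGcgcatcggag
Klf15 at 3 bp before the start: cccgcggcgtCACGTGagcggccgga

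Of all 32851 promoters in the RefSeq table, 2349 (7.15%) had at least 1 CACGTG, and 29 (0.0883%) had 3 or more. The share with CACGTG was 23.2% among the 2322 promoters that overlapped a BMAL1 interval and 5.93% among the promoters that overlapped none. Among the 57 promoters that overlapped an interval called in 6 or more libraries it was 35.1%. Of the promoters overlapping an interval, 13 (0.56%) had 3 or more E-boxes, as did 1.75% of the 57. These shares describe the setting in which the Klf11 and Klf15 E-boxes stand, and a match does not show a bound site. The Klf11 window overlapped an interval called in 6 libraries. The Klf15 window overlapped an interval called in 3 libraries and not the recurrent Klf15 interval described below. The sequence under the summits of that recurrent interval was not searched. The GC box GGGCGG, the kind of element bound by SP factors and many Krüppel-like factors, occurred 4 times at Klf11, of which 2 overlapped each other, and 1 time at Klf15, against at least 1 match in 35.7% of all promoters. That share was 73.8% among promoters overlapping an interval and 80.7% among those overlapping an interval called in 6 or more libraries, and 3 or more matches were found in 30.1% and 45.6% of them. No GC box overlapped an E-box in either window, and none was found in the Klf9 window. The elements CACGTT, TTANGTAA and AGGTCA, also searched on both strands, were not found in the 3 windows. They were present in 4.68%, 2.32% and 16.3% of all promoters.

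The lists differed widely in length, which bears on every count of calls below. They held 221 peaks in misaligned and 141 in control females at ZT12, and 1330 in misaligned and 225 in control females at ZT0. In males they held 5542 peaks in misaligned and 290 in control mice at ZT12, and 1864 in misaligned and 373 in control mice at ZT0. The read depth of the libraries is not given in the sources used here. The lowest local background of each list, a rough measure of depth times fragment length, lay between 4.25 and 6.16 fragments, and the longest list had the lowest of these values. It rested on few peaks in the ZT12 lists of females, where 4 peaks in misaligned and 5 in control mice were within 1% of it. Of a list of 22 core clock genes, which holds many known targets of BMAL1, 15 were named by an interval. Between 12 and 15 of them were called in each of the 8 libraries. The shares of all gene names called ran from 2.37% in control females at ZT12 to 81.3% in misaligned males at ZT12. This is a rough check of the antibody only, since the list was chosen with earlier results of these data known.

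BMAL1 peaks at Klf15 and Klf11 recurred across libraries, while those at Klf9 and Klf10 were called in fewer. A gene counted as called in a library when the library's list had a peak over any of its intervals. Klf15 was called in 7 of 8 libraries, all but control females at ZT0. Klf11 was called in 6, which left out the control females at both times. Klf10 was called in 4 libraries, misaligned females at ZT0, misaligned males at ZT12 and both male ZT0 libraries, and Klf9 in 3, the same misaligned libraries without the control.

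By library, 2 of the 4 genes were called in misaligned females at ZT12 and 1 in control females at ZT12, against 3.73% and 2.37% of all 5527 gene names in the table. In females at ZT0, 4 were called in the misaligned library and none in the control library, against 22.4% and 3.89% of all gene names. In males at ZT12, 4 were called in the misaligned and 2 in the control library, against 81.3% and 4.65%. In males at ZT0, 4 were called in the misaligned and 3 in the control library, against 31% and 6.22%. Since the genes were picked with these calls known, the shares over all gene names are the scale for the counts and nothing is read from the excess.

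**Figure D1:**
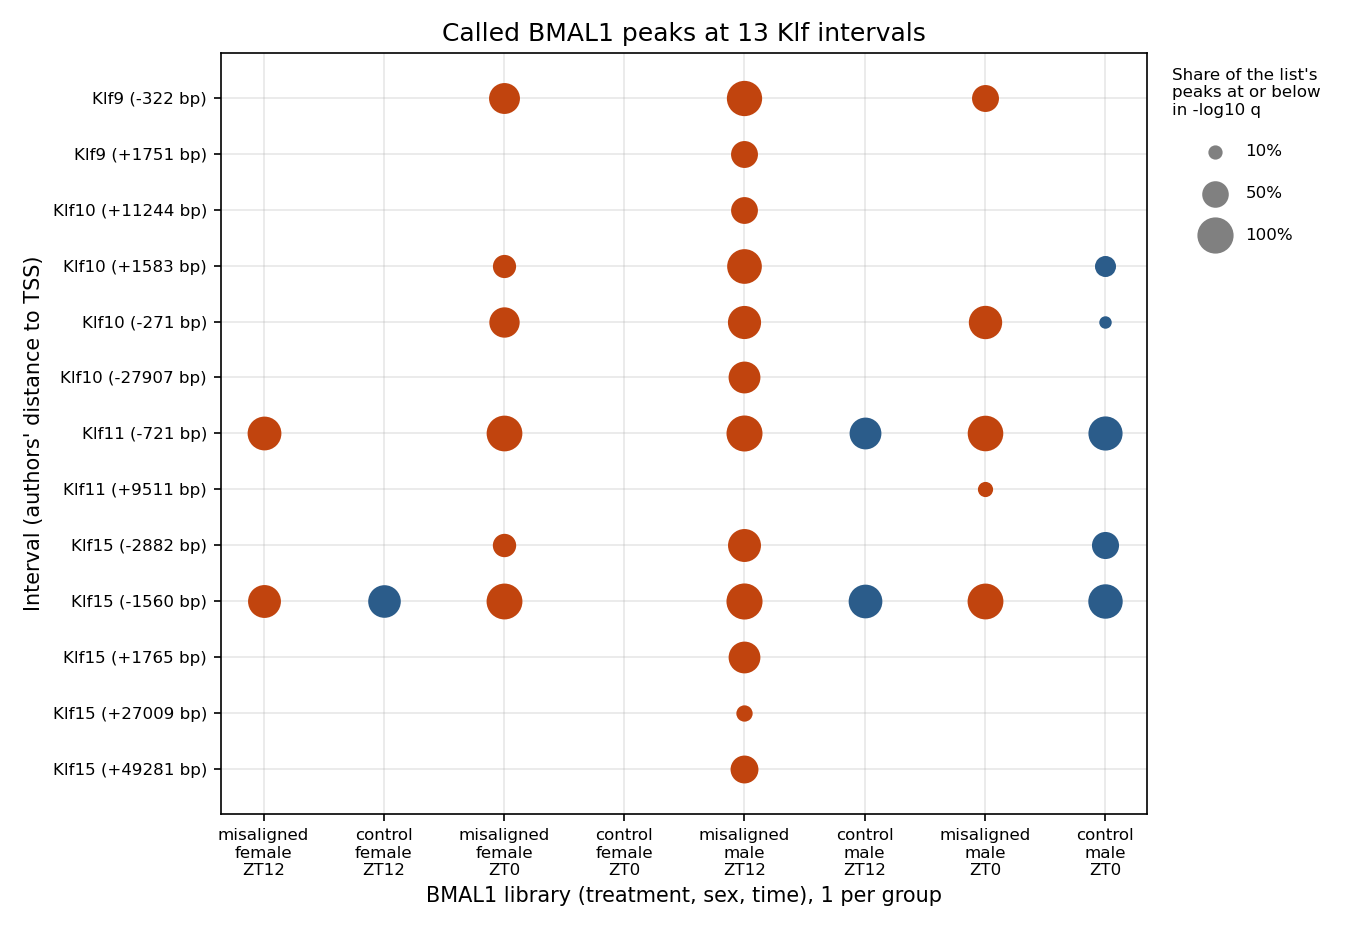
Called BMAL1 peaks at the 13 intervals, with the authors' distance of each interval to the annotated start (vertical) and the 8 libraries (horizontal); a dot is a called peak, orange for misaligned and blue for control, and its area is the percentage of the same list's peaks that were at or below it in -log10 q. The Klf15 interval at -1560 bp has dots in 7 libraries and the Klf11 interval at -721 bp in 6, while 6 intervals have a dot in misaligned males at ZT12 alone.

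The 13 intervals were unevenly shared. An interval called in 6 or more libraries was found at 1 locus each for Klf11 and Klf15, against 1.58% of all intervals, and the Klf15 one was also among the 0.895% of intervals called in 7 or more. A further 7 of the 13 were called in 1 library, as were 78.5% of all intervals. Of those 7, 6 came from misaligned males at ZT12, the longest list, which also supplied 4106 of the 5526 intervals of the whole table that were called in 1 library. Counted by interval, misaligned females had 2 called at ZT12 and 6 at ZT0, against 3.08% and 18.8% of all intervals, and control females had 1 and 0, against 1.96% and 3.17%. Misaligned males had 12 at ZT12 and 5 at ZT0, against 78.7% and 26.4%, and control males had 2 and 5, against 4.06% and 5.21%.

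The heights below come from the authors' peak caller, which gives each peak a fold enrichment over local background and a -log10 q value, both usable within a list only. The whole number of fragments at the summit and the local background were worked back from these values for every peak. Peak strength is here the summit fragments above the local background, divided by the lowest local background of that list, with an exact 95% Poisson interval. The interval covers only the counting error of the summit fragments, as if each were an independent molecule, which sequenced copies are not. The local background and the lowest background of the list were taken as exact. The intervals are therefore, if anything, too narrow.

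Klf15, whose product drives amino acid use and gluconeogenesis in fasting liver, had its recurrent interval at chr6:90463442-90464046, in intron 1 of 2 by the authors' annotation. The authors placed it 1560 bp before a start, whereas the summits lay 1153 to 1178 bp after the start in the RefSeq promoter table, so the annotated starts differ. Over the 7 libraries the summits fell within 25 bp of each other. The summit held 81 fragments in misaligned and 79 in control females at ZT12, and 94 in misaligned females at ZT0. In males it held 145 fragments in misaligned and 86 in control mice at ZT12, and 89 in misaligned and 62 in control mice at ZT0.

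Peak strength at this Klf15 interval was 10.6 in misaligned and 11.4 in control females at ZT12, and 17.1 in misaligned females at ZT0. It was 31.6 in misaligned and 17.3 in control males at ZT12, and 18.5 in misaligned and 9.004 in control males at ZT0. Misaligned males at ZT12 stood highest, with an interval of 26.3 to 37.6 that did not overlap that of the next library, and every later neighbour in the order had overlapping intervals. The rank of the peak by -log10 q was between 28 and 43 in every list that held it, out of 141 to 5542 peaks, and its fold enrichment was between 4.82 and 12.6. Ranks in lists of unequal length show no change between groups.

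No Klf15 peak was listed in control females at ZT0. A call there would have needed about 31 fragments, a strength of 3.79, if the background were as high as the highest seen at this interval, 2.61 times the lowest of its list. That limit is below the lowest strength seen where the interval was called, 9.004. In the same library the 26 intervals called in all 8 libraries without a peak of high background were also low, with strengths of 4.33 to 16.1 and a median of 7.704. In the other libraries the Klf15 strength was 0.624 to 0.917 times the median of those 26 shared sites.

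The RefSeq gene of Klf15 begins at chr6:90461043, and the start in the RefSeq promoter table lies after that, at chr6:90462576. A second Klf15 interval lay over this later start, at chr6:90462227-90462617, and was called in 3 libraries. Its strength was 7.68 in misaligned males at ZT12, 4.07 in misaligned females at ZT0 and 4.68 in control males at ZT0, with overlapping intervals throughout. The summits lay 124 to 185 bp before the start in the promoter table. The nearest of the 3 E-boxes to these summits was in each case the one 172 bp before that start. They were 45.5 bp from its centre in misaligned males at ZT12, 15.5 bp in misaligned females at ZT0 and 9.5 bp in control males at ZT0. The other 3 Klf15 intervals were called in misaligned males at ZT12 alone. They lay in exon 2 of 3 with 37 fragments and, by the authors' annotation, in an intron of another gene 27009 and 49281 bp from the Klf15 start, with 22 and 27 fragments.

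Klf11, a repressor related to Klf10 that has also been studied in the control of the insulin gene, had its recurrent interval at the promoter, chr12:24650792-24651558, 721 bp before a start by the authors' distance. The summit held 80 fragments in misaligned females at ZT12 and 85 in misaligned females at ZT0. In males it held 107 fragments in misaligned and 60 in control mice at ZT12, and 67 in misaligned and 62 in control mice at ZT0. The matching strengths were 11.5 and 15.4 in misaligned females at ZT12 and ZT0. They were 23.5 in misaligned and 11.9 in control males at ZT12, and 13.8 in misaligned and 8.84 in control males at ZT0. Misaligned males at ZT12 were again highest, but here each library's interval overlapped that of the next in order. The peak was within the strongest 73 of every list that held it.

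Neither control female library had a Klf11 peak. A call would have needed a strength of about 3.12 at ZT12 and 3.14 at ZT0, if the background stood at the highest ratio seen at this interval, 1.82 times the lowest of its list. Both limits are below the lowest strength seen where the interval was called, 8.84. The 26 shared sites had a median strength of 12.45 in control females at ZT12 and 7.704 at ZT0, the latter itself below 8.84. Among the libraries with a peak, the Klf11 strength was 0.511 to 0.762 times the median of the 26 shared sites. A second Klf11 interval, in exon 4 of 4, was called in misaligned males at ZT0 alone, with 22 fragments and a -log10 q of 2.26, a weak peak that exceeded only 12.1% of its list.

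**Figure D2:**
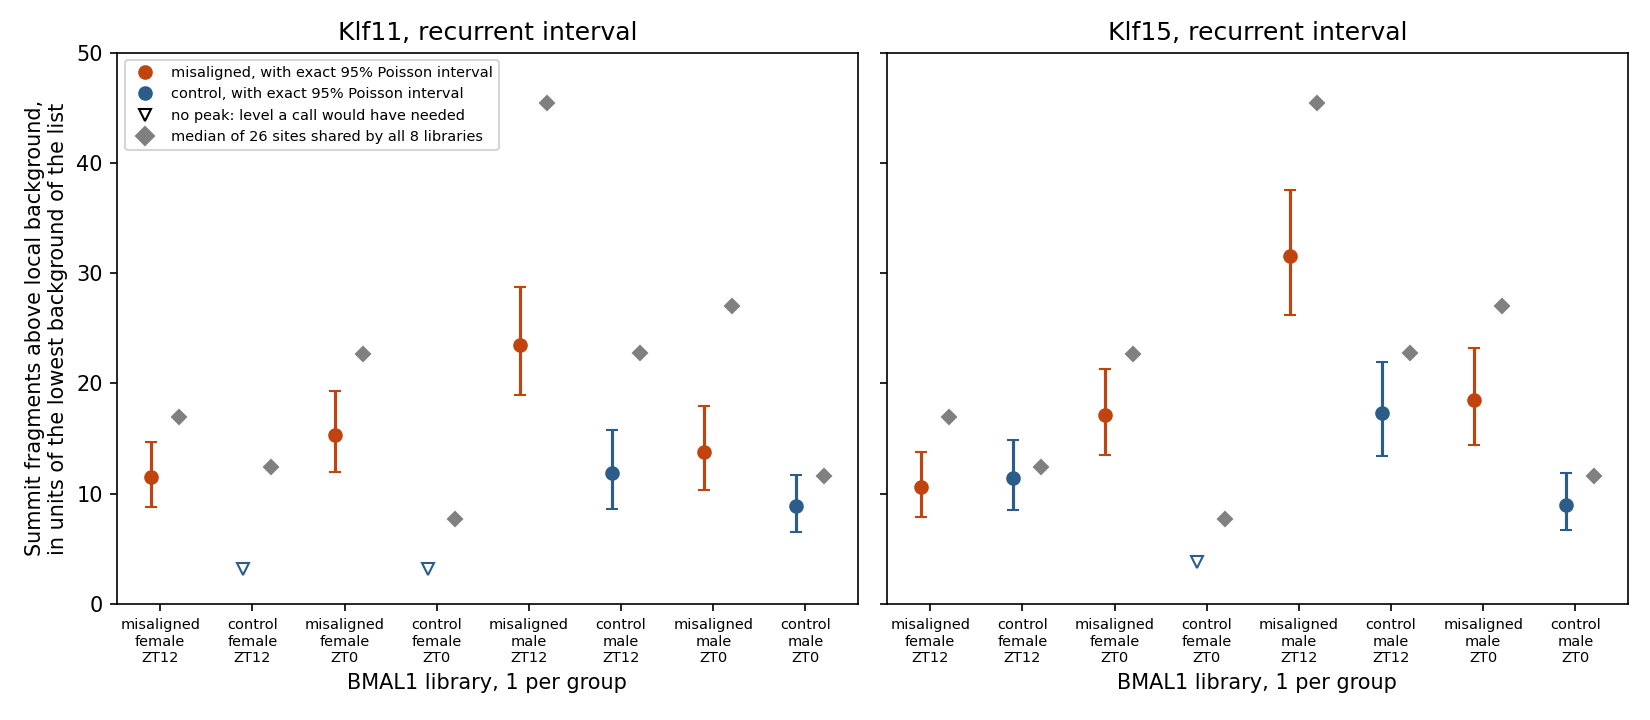
Peak strength (summit fragments above local background, in units of the lowest background of the list) at the recurrent Klf11 (left) and Klf15 (right) intervals in each library, with exact 95% Poisson bars; open triangles give the strength a call would have needed where no peak was listed, and grey diamonds the median of the 26 sites shared by all libraries. Misaligned males at ZT12 are highest at both, at 23.5 and 31.6, and all values lie under the shared-site median of their library.

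The Klf11 summits lay close to the E-box. They fell between 224 and 173 bp before the RefSeq start, a range of 51 bp over 6 libraries. Their distance to the centre of the E-box was 12.5 bp in misaligned females at ZT12, 7.5 bp in misaligned females at ZT0, 11.5 bp in misaligned and 15.5 bp in control males at ZT12, and 27.5 bp in misaligned and 38.5 bp in control males at ZT0. Over all promoters with an E-box and a summit in the window, 801 pairs, the median distance to the nearest E-box was 28.5 bp, with quartiles of 11.5 and 58.5 bp. These distances have no control without BMAL1 and are a description.

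Klf10, whose product regulates glucose and lipid genes in liver, had 4 intervals. The one at the promoter, chr15:38300587-38301370, had a strength of 6.25 in misaligned females at ZT0 and 10.8 in misaligned males at ZT12. At ZT0 in males it was 7.96 in the misaligned and 3.32 in the control library. In order of strength each library's interval overlapped that of the next. The control male peak stood near the bottom of its list, at or above only 6.43% of it. This interval also had the highest local background of any of the 33 peaks, 3.50 times the lowest of the list in misaligned males at ZT12. With a background that high, the libraries without this peak (misaligned females at ZT12, control females at both times and control males at ZT12) would have needed strengths of 3.83 to 4.70 for a call. These are above the 3.32 of control males at ZT0, so a site that weak was not detectable in them at such a background. The peak of control males at ZT0 itself had a background of 1.54 times the lowest. The misaligned peaks at ZT0 had 1.66 in females and 1.98 in males. At 1.54 times the lowest, the libraries without this peak would have needed 2.69 to 3.24, below 3.32. A site that weak could then have been called in them.

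The interval in intron 1 of 3 of Klf10, chr15:38298593-38299655, was called in misaligned males at ZT12 with a strength of 10.7, in misaligned females at ZT0 with 4.27 and in control males at ZT0 with 3.94. Misaligned males at ZT12 did not overlap the others, which overlapped each other. The remaining Klf10 intervals, 11244 bp after and 27907 bp before the start by the authors' distances, were intergenic in the authors' annotation and called in misaligned males at ZT12 alone, with 23 and 29 fragments. The non-coding gene Gm35248 overlapped all of these intervals except the one 11244 bp after the start, so the assignment to Klf10 is that of the authors.

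Klf9, a glucocorticoid-induced gene whose product acts mostly as a repressor, had a promoter interval at chr19:23140475-23141333. Its summit held 38 fragments in misaligned females at ZT0, 69 in misaligned males at ZT12 and 32 in misaligned males at ZT0. The strengths were 6.11, 14.2 and 5.32 in the same order, and misaligned males at ZT12 did not overlap the other libraries, which overlapped each other. The summits lay 295 to 320 bp before the RefSeq start, outside the window whose sequence was searched, so the absence of an E-box in that window says nothing about the sequence under them. The second Klf9 interval, in intron 1 of 1, was called in misaligned males at ZT12 alone, with 25 fragments.

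A stronger and more widely called BMAL1 interval stood near Klf9 but was assigned by the authors to the non-coding gene 2410080I02Rik. It lies at chr19:23134776-23136917, with summits 5378 to 5450 bp before the RefSeq start of Klf9, and was called in 6 libraries, those in which Klf11 was called. Its strength was 7.73 and 11.6 in misaligned females at ZT12 and ZT0. It was 22.4 in misaligned and 13.3 in control males at ZT12, and 13.9 in misaligned and 9.96 in control males at ZT0. When intervals were assigned to any RefSeq gene within 10 kb, Klf9 was called in 6 libraries in place of 3.

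**Figure D3:**
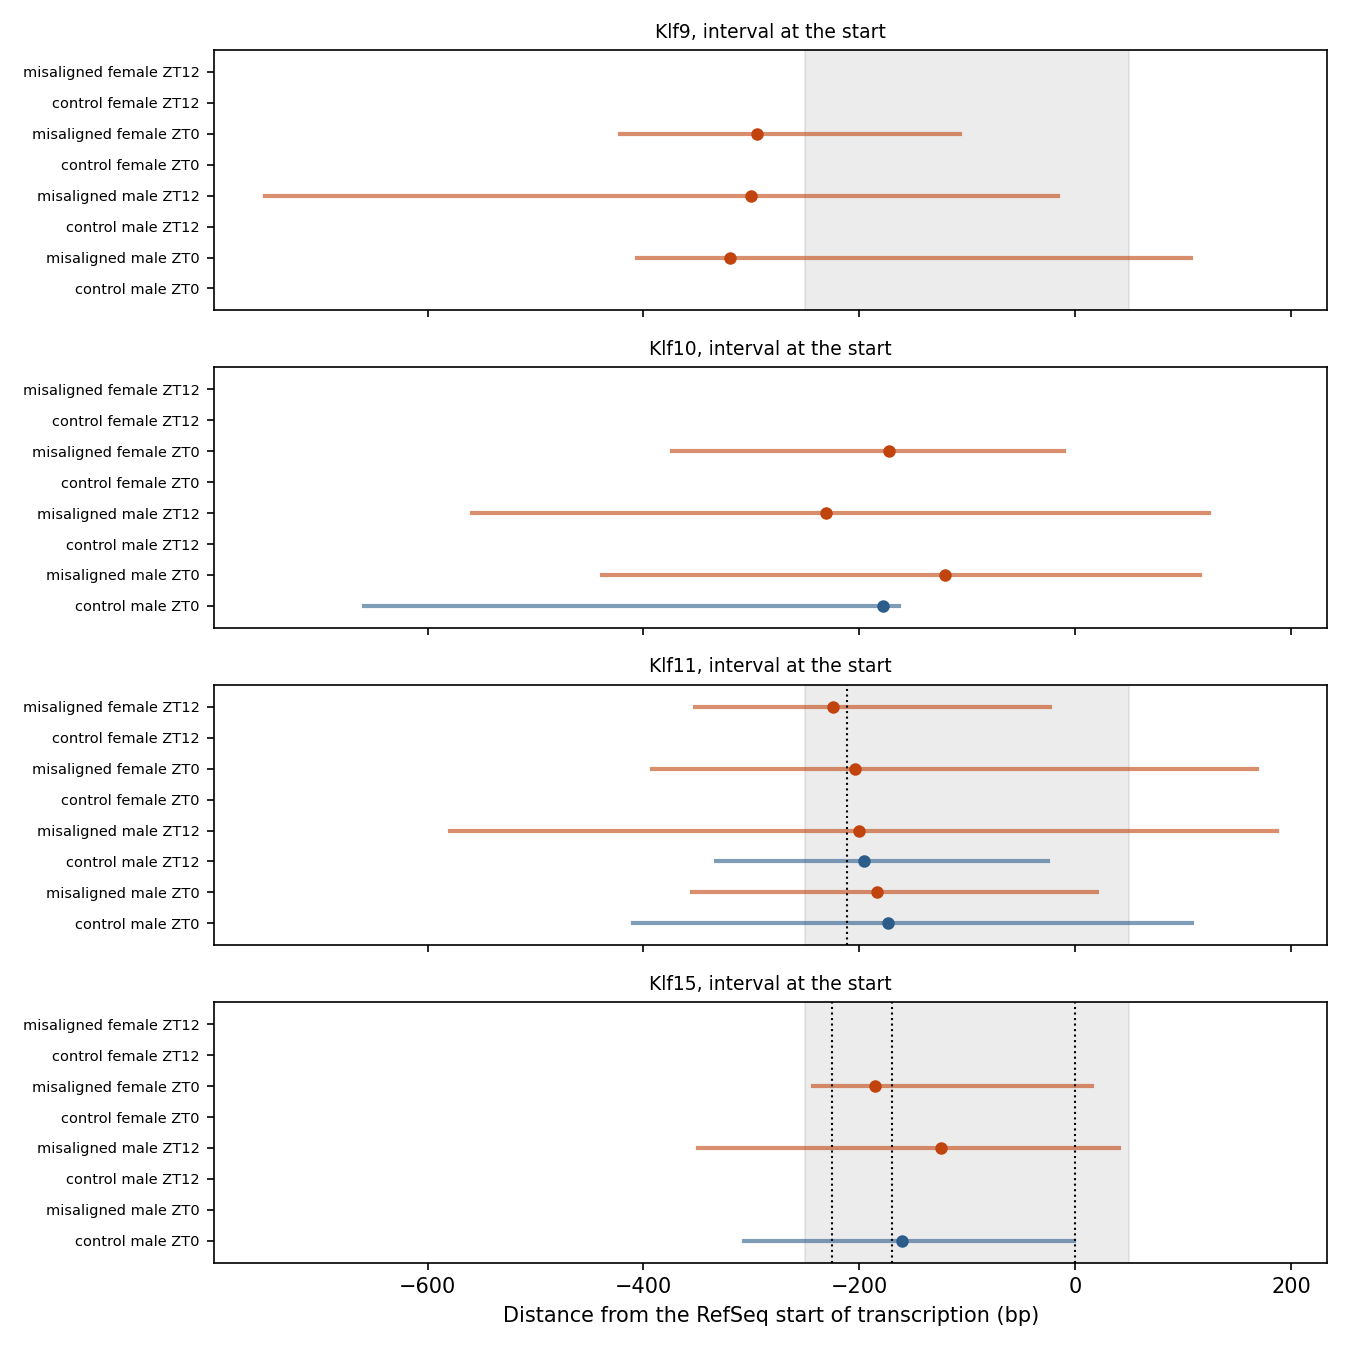
Extent (bars) and summit (points) of the called peak at the start used for each gene, by library. The horizontal axis is the distance in bp from the start in the RefSeq promoter table (for Klf10, the upper end of the gene). Misaligned libraries are orange and control libraries blue, grey marks the window with RefSeq sequence and dotted lines the E-box centres. The Klf11 summits of 6 libraries lie within 51 bp around the E-box, the Klf9 summits lie left of the window, and Klf10 has no window.

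Misaligned and control libraries of the same sex and time gave 16 combinations of gene and pair. Of these, 8 were called in the misaligned library alone, 6 in both and none in the control library alone. Over all gene names, those called in the control library alone were 1.21% and 2.32% in females and 0.651% and 1.34% in males, at ZT12 and ZT0. In females at ZT12, Klf11 was called in the misaligned library alone and Klf15 in both, against 2.57% and 1.16% of all gene names. In females at ZT0, all 4 genes were called in the misaligned library alone, against 20.8% of all gene names, while none was called in both, against 1.57%. In males at ZT12, Klf9 and Klf10 were called in the misaligned library alone and Klf11 and Klf15 in both, against 77.3% and 4%. In males at ZT0, Klf9 was called in the misaligned library alone and the other genes in both, against 26.1% and 4.89%.

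The misaligned list was the longer one in every pair, and what this contributed to the calls was not tested. When every list was shortened to its strongest 141 peaks, the combinations called in the misaligned library alone were 3 in place of 8, and those called in both were 5. Klf11 and Klf15 kept all their 6 and 7 calls under that limit, whereas Klf9 and Klf10 had none in any library. Counted by interval and not by gene, 19 combinations of interval and pair were called in the misaligned library alone, 6 in both and 2 in the control alone. Over all intervals and pairs the shares were 29.4%, 2.29% and 1.31%. Those in the control alone were the Klf10 intron and the Klf15 start in males at ZT0, a pair in which 1.42% of all intervals were called in the control alone.

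Where both libraries of a pair had the peak, the ratio of strength was set beside the median ratio over all intervals called in both, which carries the general difference between the libraries. Klf15 had a misaligned to control ratio of 0.928 in females at ZT12, against a median of 1.15 over 55 intervals. In males at ZT12 the ratio was 1.98 at Klf11 and 1.82 at Klf15, against a median of 2.19 over 204 intervals. In males at ZT0 it was 2.40 at the Klf10 promoter, 1.56 at Klf11 and 2.05 at Klf15, against a median of 1.79 over 244 intervals. Klf11 and Klf15 thus stayed inside the quartiles of all shared intervals in males, while Klf10 was above the upper quartile of 2.25 and Klf15 in females at ZT12 below the lower quartile of 0.956. The counting intervals of the strengths did not overlap for Klf11 and Klf15 at ZT12 or for Klf15 at ZT0 in males, and overlapped in the other pairs.

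**Figure D4:**
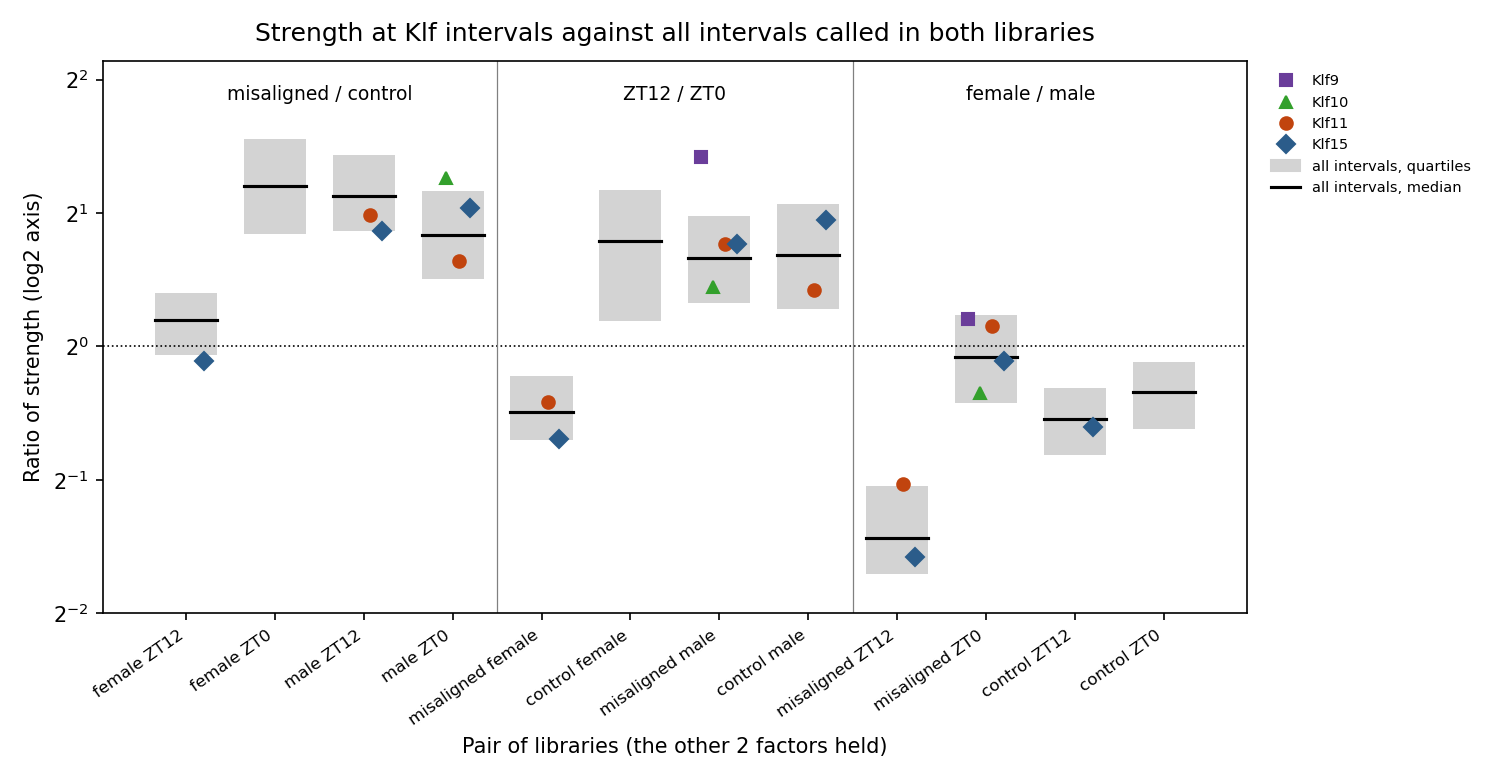
Ratio of peak strength (log2 axis) in pairs of libraries that differ in treatment (misaligned over control), time (ZT12 over ZT0) or sex (female over male), at the promoter intervals of Klf9, Klf10 and Klf11 and the recurrent Klf15 interval; black lines are the medians and grey boxes the quartiles of all intervals called in both libraries. Most points lie in the grey boxes, and Klf9 between ZT12 and ZT0 in misaligned males, at 2.68, and Klf11 between females and males in misaligned mice at ZT12, at 0.490, are among those above their boxes.

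Between times of day, the 16 combinations gave 1 called at ZT12 alone, 8 called at both times and 3 called at ZT0 alone. The one at ZT12 alone was Klf15 in control females, against 1.68% of all gene names. In misaligned females, Klf11 and Klf15 were called at both times and Klf9 and Klf10 at ZT0 alone, against 2.62% and 19.8%. In misaligned males all 4 genes were called at both times, against 19.8%. In control males Klf11 and Klf15 were called at both times and Klf10 at ZT0 alone, against 2.15% and 4.07%. Counted by interval, 9 combinations were called at ZT12 alone, 8 at both times and 8 at ZT0 alone, against 17.3%, 4.64% and 8.76% over all intervals and pairs. Of those at ZT12 alone, 8 came from misaligned males.

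The ratio of strength at ZT12 to that at ZT0 was below 1 in misaligned females and above 1 in males. In misaligned females it was 0.749 at Klf11 and 0.619 at Klf15, against a median of 0.712 over 131 intervals. In misaligned males it was 2.68 at Klf9, 1.36 at Klf10, 1.70 at Klf11 and 1.71 at Klf15, against a median of 1.58 over 967 intervals, and Klf9 was above the upper quartile of 1.97. In control males it was 1.34 at Klf11 and 1.93 at Klf15, against a median of 1.61 over 107 intervals. The medians of all shared intervals moved the same way as the Klf ratios in each of these pairs.

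Between the sexes, no gene was called in a female library alone, 7 combinations were called in both sexes and 6 in the male library alone. Over all gene names, those called in females alone were 0.597% and 11.7% in misaligned mice and 0.995% and 2.7% in control mice, at ZT12 and ZT0. At ZT12 in misaligned mice Klf11 and Klf15 were called in both sexes and Klf9 and Klf10 in males alone, against 3.13% and 78.2% of all gene names. At ZT0 in misaligned mice all 4 were called in both, against 10.7%. In control mice at ZT12, Klf15 was called in both sexes and Klf11 in males alone, against 1.38% and 3.27%. In control mice at ZT0, Klf10, Klf11 and Klf15 were called in males alone, against 5.03%. Counted by interval, 2 combinations were called in females alone, 7 in both sexes and 17 in males alone, against 3.64%, 3.11% and 25.5% over all intervals and pairs. Those in females alone were the Klf10 intron and the Klf15 start in misaligned mice at ZT0.

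The female to male ratio of strength at ZT12 in misaligned mice was 0.490 at Klf11 and 0.335 at Klf15, against a median of 0.369 over 158 intervals, and Klf11 was just above the upper quartile of 0.483. At ZT0 in misaligned mice it was 1.15 at Klf9, 0.785 at Klf10, 1.11 at Klf11 and 0.925 at Klf15, against a median of 0.948 over 526 intervals. In control mice at ZT12 it was 0.658 at Klf15, against a median of 0.685 over 67 intervals. Apart from Klf11 at ZT12 in misaligned mice, the female to male ratios lay inside the quartiles of all shared intervals.

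Of the other 22 genes of the KLF and SP families, 7 were named by at least 1 interval and none in 6 or more libraries. Klf16, a repressor that binds GC boxes, was called in 5 libraries, with an interval 551 bp before its start that was missing from both control female libraries and from control males at ZT12. Klf3, a repressor that recruits CtBP, and Klf13, a relative of Klf9, were called in 3 libraries each. Klf2, known from endothelium, was called in 2, and Klf4, Klf17 and Sp1 in 1 each. Of these 7 genes, 1 was called in misaligned and none in control females at ZT12, against 3.73% and 2.37% of all gene names. In females at ZT0, 3 were called in the misaligned and none in the control library, against 22.4% and 3.89%. In males at ZT12, 6 were called in the misaligned and none in the control library, against 81.3% and 4.65%. In males at ZT0, 4 were called in the misaligned and 2 in the control library, against 31% and 6.22%.

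The peaks at Klf11 and Klf15 were weaker than those at most clock genes. Of the core clock genes called in the same list, those with a higher -log10 q than Klf15 were 12 of 13 in misaligned and 10 of 13 in control females at ZT12, and 11 of 14 in misaligned females at ZT0. In males they were 13 of 15 in misaligned and 11 of 13 in control mice at ZT12, and 13 of 14 in misaligned and 10 of 12 in control mice at ZT0. For Klf11 they ranged from 11 of 14, in misaligned females at ZT0, to 13 of 13, in control males at ZT12.

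Protein-coding genes called in exactly the same libraries as a member were compared by the percentage of each list at or below their best peak. For Klf15, 10 genes had the same calls, and Nptn was nearest, with a mean difference of 1.47 percentage points over 7 libraries, followed by 1810013L24Rik with 3.85 and Fam76a with 5.04. For Klf11, 13 genes had the same calls, and Tns2, Usp2 and Hmgn2 were nearest, with mean differences of 4.54, 5.47 and 5.72 percentage points over 6 libraries. For Klf10, 51 genes had the same calls, and Ppl, Usp22 and Usp53 were nearest, with 3.13, 3.96 and 4.08 percentage points over 4 libraries. For Klf9, 157 genes had the same calls, and Pabpc4, Lipe and Supv3l1 were nearest, with 3.53, 3.76 and 5.01 percentage points over 3 libraries. Usp2 and Usp22 encode deubiquitinases, and Lipe encodes hormone-sensitive lipase.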

How the data were processed

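Per the submitters' processing notes, the tools were BWA 0.7.17-r1188 and MACS2 2.2.7.1 and the build was GRCm38. The settings, the use of the IgG libraries as control and the depth are not given in the sources used here. The deposited lists, 1 per library, give for each peak a score, a fold enrichment (a ratio), a -log10 p and a -log10 q. The lowest -log10 q in a list was 1.30 to 1.42, so the lists look like ones made at a q of 0.05. The deposited merged table gives the authors' true or false call per interval and library, and the nearest gene; all 56344 calls were checked against the lists with an overlap of 1 bp.

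Members and lists were chosen with earlier results of these data known. Summit fragments and local background were solved from the fold enrichment, with a pseudocount of 1, and -log10 p, with a relative tolerance of 0.0001, for 100% of peaks. On data simulated with the same formula and pseudocount, 100% of 996 peaks with a finite -log10 p were solved rightly. That checks the solving step and not whether the peak caller used this formula. A local background of 5 or more times the lowest of the list was called high, and no member peak had one. Poisson intervals are exact at 95%. The strength needed for a call took the weakest -log10 p of the list as its limit.

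All 4 genes and all their intervals are named, every other KLF or SP gene with an interval, and for each member the 3 protein-coding genes with the same calls and the most similar percentages within lists. Of the KLF15 target list, up to 3 genes by libraries called were to be named; the others were named after their values were seen. Promoters came from RefSeq (GRCm38.p6) and matched 3 of the 4 genes by symbol. The Klf10 start was taken as the upper end of the RefSeq gene, since the authors' distances run towards lower coordinates. Python 3.11.15, numpy 2.4.6, scipy 1.17.1, pandas 2.3.3 and matplotlib 3.10.9 were used.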

Additional observations from a re-analysis of the deposited data

How the results depend on the processing

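Of 60 values under alternative settings, 53 were within 1.5 times the reported one. That count is no measure of stability, since it includes values of 0 set against 0 and settings that could change no call. With lists of equal length (141 peaks each) Klf9 and Klf10 were called in 0 libraries in place of 3 and 4, and 3 combinations of gene and pair in place of 8 were called in the misaligned library alone. Counting intervals within 1 kb of the authors' start, Klf15 was called in 0 libraries in place of 7, since its recurrent interval is 1560 bp away. With that limit, 3 combinations in place of 6 were called in both libraries. The count for Klf15 depends on the start used. The Klf15 interval called in 3 libraries had summits 124 to 185 bp before the start in the RefSeq promoter table. With any RefSeq gene within 10 kb, Klf9 was called in 6 libraries in place of 3, through the interval at 2410080I02Rik. Without the pseudocount in the fold enrichment, whole fragments were recovered for 0.741% of peaks in place of 100%. A -log10 q of at least 3 or 5 could change no call of a gene. The weakest of the genes' best peaks, at Klf9 in misaligned males at ZT0, had a -log10 q of 5.03. A limit of 10 kb could change no call of a gene either, since each had an interval nearer than that. The overlap of 50% moved no count past 1.5 times. With the overlap of 50%, however, Klf11 was called in 4 libraries in place of 6, without misaligned females and control males at ZT12. Klf9 was then called in 2 libraries in place of 3. Leaving out peaks of high background could change no count, since no member peak had one. The combinations called in the control library alone were 0 under every setting. Leaving out the male ZT12 pair, chosen after seeing the data, gave 6 combinations in the misaligned library alone, 4 in both and 0 in the control alone. No paired analysis was possible because each group holds 1 library, so no replicate numbers are shared by replicates; pairs matched on sex and time are described and not tested, since their calls chose the genes. No replicate could be left out. Depth is unknown, and a missing call means under about 19 to 45 fragments at these intervals.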

Other observations

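Genes reported as targets of KLF15 in liver and heart metabolism were also looked up, as a list chosen with earlier results known. Of 10 genes, 8 were named by an interval, and Tat and Slc7a8 were not. G6pc, the last enzyme of glucose release, was called in 6 libraries, all but control females at ZT0 and control males at ZT0, with its most widely called interval 11446 bp after its start. Slc7a2, a transporter of basic amino acids, was called in 5 libraries with a promoter interval 306 bp before its start. Gpt and Pck1 were called in 4 libraries each, Klf3 in 3, Bcat2 in 2, and Prodh and Kcnip2 in 1 each. Of the 8 genes, 1 was called in misaligned and 2 in control females at ZT12, against 3.73% and 2.37% of all gene names in the table, and 6 in misaligned and 0 in control females at ZT0, against 22.4% and 3.89%. In males, 7 were called in misaligned and 3 in control mice at ZT12, against 81.3% and 4.65%, and 5 in misaligned and 2 in control mice at ZT0, against 31% and 6.22%. The misaligned count was the higher one in every pair except females at ZT12, and the counts were not tested. The misaligned list was the longer one in every pair, and what this contributed to these counts was not tested either.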
